A study of Arabidopsis thaliana with 6 samples.

Results

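MYB transcription factors are the members of the plant MYB family whose gene names are MYB and a number. They were taken as protein-coding genes named MYB1 to MYB125 by symbol or synonym, kept where the annotation calls them a myb domain protein. This gave 121 of 27444 protein-coding genes on chromosomes 1 to 5. Another 4 genes that matched MYB and a number, GL1 (MYB0), MYB305, MYB8 and MYB102, fell outside the numbers or lacked the description and were left out. A MYB domain is a DNA-binding repeat, and most plant members carry a pair of repeats, called R2R3. R2R3-MYB factors are known for controlling phenylpropanoid, flavonoid and glucosinolate synthesis, cuticle and cell wall formation, cell fate in the epidermis, and stress and hormone responses. Many flavonoid MYB genes are active in the light, whereas PIF4, a bHLH factor that promotes elongation growth, is removed when light activates phytochrome.

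Binding of PIF4 was mapped by chromatin immunoprecipitation and sequencing (ChIP-seq) in whole Arabidopsis thaliana seedlings that were 3 days old. Germination was started with 3 h of white light, and growth was in darkness at 21 °C. The PIF4-Myc group was a transgenic line overexpressing PIF4 with a Myc epitope tag, with 3 libraries. The wild type (WT), which carries no tag, was treated alike with the anti-Myc antibody and also had 3 libraries. The promoter of the transgene is not given in the sources used here, and each library pooled 4 ChIP assays of 2 biological replicates. The data are 3 lists of peaks, 1 for each PIF4-Myc library, each called by the authors against a WT ChIP that enters only as that control. In whole seedlings a strong peak in few cells and a weak peak in all cells cannot be told apart.

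The 3 lists were unlike each other. List 1 held 12177 peaks, of which 51.2% had a fold enrichment below 1, and all of its tag values were multiples of 5. Lists 2 and 3 held 4093 and 2931 peaks, none with a fold below 1. The headers gave 12766185, 9385807 and 12292381 treatment tags for lists 1, 2 and 3, and lists 1 and 2 name the same control, unlike list 3. Fold enrichment below is the authors' value for a single peak, the tags at the summit over the local expectation, and it carries no replicate error. A peak was assigned to every gene that held its summit or ended or began at most 2 kb from it. A shared region is a set of assigned peaks of at least 2 lists that overlap by at least 1 bp, and its fold in a list is that of the list's highest peak in it. The annotation used carries no strand, so upstream and downstream sides were not distinguished.

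PIF4 peaks lay near many MYB genes, with modest enrichment. A shared region was found at 24 of 121 MYB genes (19.8%, exact 95% interval 13.1 to 28.1), against 15.1% of all protein-coding genes. At 23 of these 24 genes the region was in lists 2 and 3 (19.0%, interval 12.4 to 27.1), against 11.6% of all genes. All 3 lists had an overlapping peak at 7 MYB genes (5.79%, interval 2.36 to 11.6), against 4.13% of all genes. The intervals cover counting error over genes only, and no test was made of these differences. The count of MYB genes with a shared region was 23 without list 1 (11.6% of all genes), 7 without list 2 (4.58% of all genes) and 8 without list 3 (7.43% of all genes). The count therefore came mainly from lists 2 and 3 together.

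By single list, 55 MYB genes had an assigned peak in list 1 (45.5%, interval 36.4 to 54.8), against 53.2% of all genes. List 2 reached 35 MYB genes (28.9%, interval 21.0 to 37.9), against 19.0% of all genes. List 3 reached 27 MYB genes (22.3%, interval 15.2 to 30.8), against 14.2% of all genes. The MYB share thus lay above that of all genes in lists 2 and 3 and below it in list 1. The list 1 direction depended on the peaks kept: with equal numbers of peaks a list it was 15.7% of MYB genes against 14.6% of all genes, and with a window of 5 kb both were at 75.2%. No peak was assigned to 47 MYB genes (38.8%, against 39.5% of all genes), and 35 had peaks in list 1 alone (28.9%, against 39.0%). A further 6 had peaks in list 2 alone (4.96%, against 2.30%) and 2 in list 3 alone (1.65%, against 0.951%). Peaks of several lists without overlap were at 7 MYB genes (5.79%, against 3.03%).

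**Figure D1:**
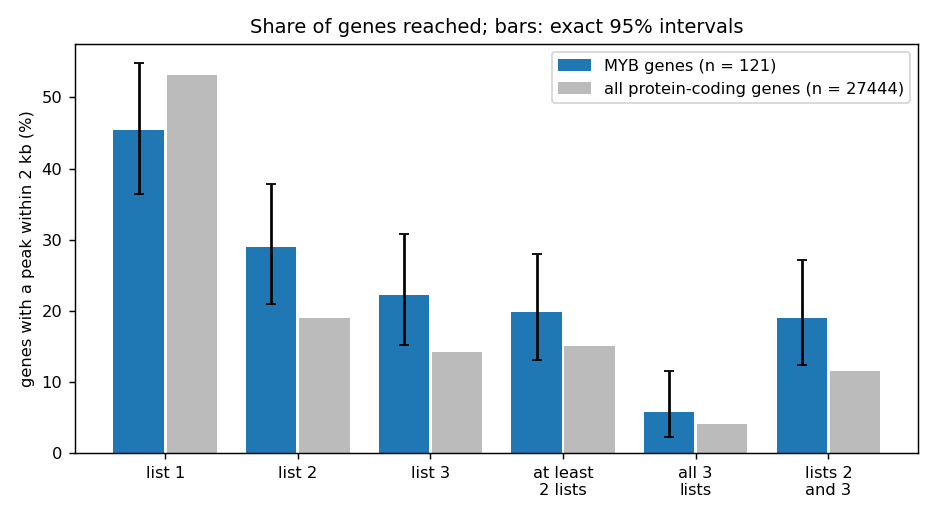
Percent of the 121 MYB genes and of all 27444 protein-coding genes with a peak summit at most 2 kb away, for each PIF4-Myc list and for overlapping peaks of several lists; error bars are exact 95% intervals over MYB genes and cover counting error only. MYB genes stood at 28.9% against 19.0% of all genes in list 2 and at 45.5% against 53.2% in list 1.

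Gaps between genes were wider around MYB genes than over all genes. The larger of the gaps to the neighbouring protein-coding genes had a median of 4207 bp at MYB genes and 1461 bp over all genes. Median gene length was 1781 bp for MYB genes and 2078 bp for all genes. Within the family, the larger gap had a median of 4242 bp at the 24 genes with a shared region and 4207 bp at the 97 without one. Over all genes these medians were 1985 bp with a shared region and 1368 bp without. The gaps on both sides, each cut at 2 kb and then added, had a median of 3002 bp at MYB genes and 1855.5 bp over all genes. By this measure the 24 MYB genes had a median of 3603 bp and the 97 a median of 2970 bp. Over all genes it was 2017 bp with a shared region and 1737 bp without. The part of gene spacing in the MYB shares was not tested.

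The 24 genes held 31 shared regions: 18 genes had 1, 5 had 2, and MYB4 had 3. Their folds in list 2 had a median of 2.50 and ran between 1.52 and 5.30, against a median of 2.60 over all shared regions near genes. Folds in list 3 had a median of 4.02 and ran between 2.92 and 7.99, against a median of 4.31. The 11 regions with a list 1 peak had a median list 1 fold of 1.00, against 1.06. In each list the MYB median was thus slightly below that of all shared regions. In the 9 MYB regions of all 3 lists the medians were 1.01, 3.32 and 5.90 in lists 1, 2 and 3, against 1.01, 2.92 and 4.43 over all such regions. PIL1, a bHLH gene strongly bound by PIF4 that serves here to set the scale, had folds of 1.46, 13.3 and 19.2 in lists 1, 2 and 3. Of the 29 MYB regions in lists 2 and 3, 4 were among the highest 10% of list 2 by fold and 2 among the highest 10% of list 3. The authors' false discovery rate of these peaks was between 9.42% and 87.4% in list 2 and between 14.6% and 99.9% in list 3, above 50% at 17 and 21 of the 29 regions. Rates were high over the whole lists: the median over all peaks was 63.9% in list 2 and 65.2% in list 3. No MYB peak of list 2 or 3 stood at 1% or less. Over all genes, 0.394% had such a peak in list 2 and 0.00364% in list 3.

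**Figure D2:**
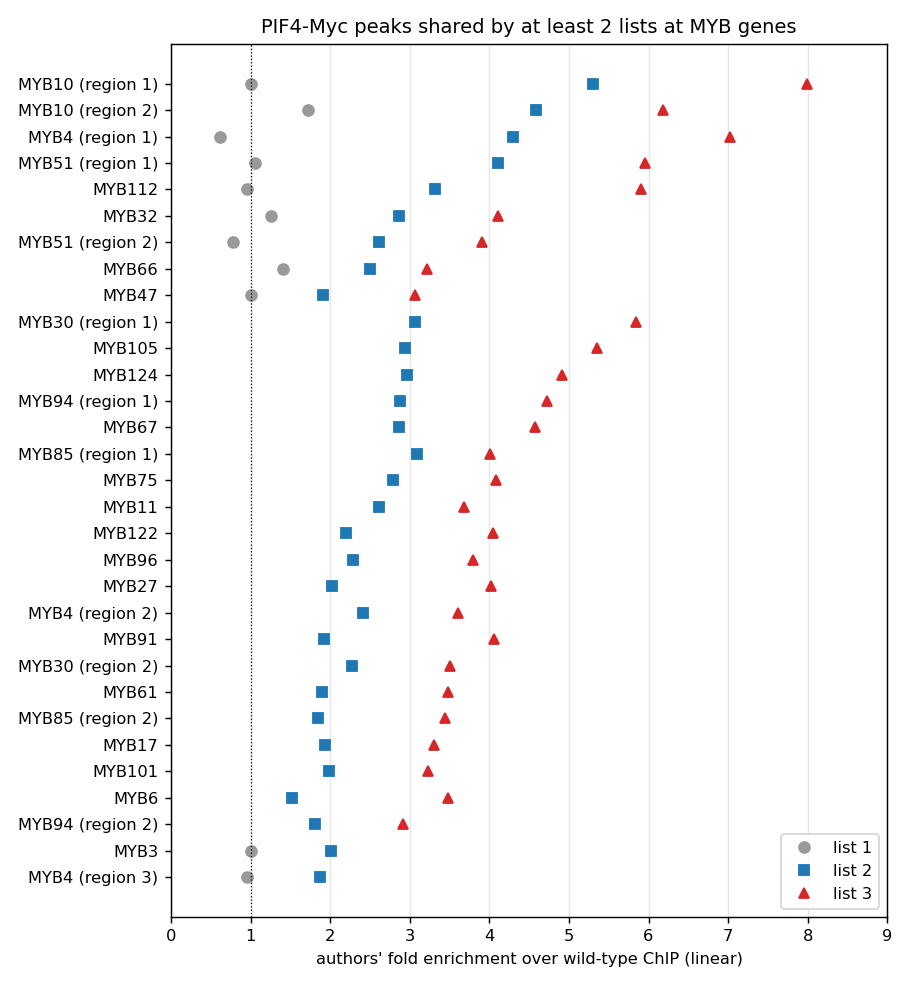
Authors' fold enrichment (linear axis) of each of the 31 shared regions at 24 MYB genes, 1 row a region, with circles for list 1, squares for list 2 and triangles for list 3; the dotted line is a fold of 1. In all 29 regions of lists 2 and 3 the list 3 fold was the higher, and list 1 folds lay between 0.62 and 1.72.

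Lists 2 and 3 ranked the MYB regions alike. The list 3 fold was higher in 29 of 29 regions, with a median ratio of 1.63. Spearman's coefficient between their folds was 0.862 over these 29 regions, and 0.118 between lists 1 and 2 over 11 regions. Both are descriptions across regions, and regions of 1 library share its depth and control. The list 2 and list 3 peaks had an identical start in 15 of 29 MYB regions (51.7%), against 49.7% of all shared regions with both lists, and their summits lay within 50 bp in 24. The lists were therefore not read as independent replicates. List 1 and list 3 summits lay within 50 bp in 5 of the 9 regions of all 3 lists.

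The highest fold in lists 2 and 3 was at MYB10, which encodes a factor of the iron deficiency response. This region, at 4075291 to 4075955 on chromosome 3 of TAIR10, had folds of 1.00, 5.30 and 7.99 in lists 1, 2 and 3. Its highest summit lay 5 bp outside the gene. A second, at 4076373 to 4077000, had folds of 1.72, 4.59 and 6.18, with its summit 1045 bp away. MYB10 was the nearest gene to both, and it was the one gene of the family with 2 regions at folds over 4 in list 2.

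Phenylpropanoid repressors of subgroup S4 had a shared region at 3 of 4 genes, against 19.8% of MYB genes and 15.1% of all genes. MYB4, which represses sinapate ester synthesis, had folds of 0.62, 4.30 and 7.03 in lists 1, 2 and 3 at 18056095 to 18057464 on chromosome 4. That summit lay 1421 bp from MYB4 and 527 bp from the proteasome gene RPN10. A nearer MYB4 region, 596 bp outside the gene, had folds of 2.41 and 3.61 in lists 2 and 3, and one inside it had 0.95 and 1.87 in lists 1 and 2. MYB32, a close relative of MYB4, reached 1.25, 2.86 and 4.11 in the 3 lists at 16659524 to 16660478 of chromosome 4, where SLP2 was nearer at 709 bp. MYB3 was the single member whose only shared region was in lists 1 and 2, at folds of 1.00 and 2.01. The highest summit of that region was nearer to AT1G22630, at 384 bp. The fourth gene, MYB7, had a list 2 peak of 2.78 inside the gene. It also had peaks just beyond the limit, with folds of 4.16 in list 2 and 8.63 in list 3 and summits at 2154 bp, and MYB7 was the nearest gene to them.

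Of the flavonoid activators, 1 of 4 anthocyanin and 1 of 3 flavonol genes had a shared region, against 19.8% of MYB genes and 15.1% of all genes. No peak in any list was assigned to 38.8% of MYB genes and 39.5% of all genes. Among anthocyanin activators, MYB75 (PAP1), a main activator of anthocyanin synthesis in seedlings, had folds of 2.79 and 4.08 in lists 2 and 3 at 21231838 to 21232576 on chromosome 1. Its list 3 summit was 1214 bp outside the gene, and the list 1 peak assigned to MYB75, with a fold of 0.61, did not overlap it. The other members of the group, the neighbouring genes MYB90 (PAP2), MYB113 and MYB114, had no shared region. MYB114 had a list 1 peak of 3.21 and a list 2 peak of 2.33 that did not overlap, and MYB90 and MYB113 had no peak. MYB112, which promotes anthocyanin formation under stress, had folds of 0.96, 3.32 and 5.90 in lists 1, 2 and 3 at 17702420 to 17703042 on chromosome 1. Among flavonol activators, MYB11 had folds of 2.61 and 3.68 in lists 2 and 3 with the summit inside the gene. MYB111 had a single list 2 peak of 1.74, and MYB12 had none.

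The stress and cuticle genes of subgroup S1 had shared regions at 3 of 5 genes, against 19.8% of MYB genes and 15.1% of all genes. MYB30 acts in defence-related cell death and brassinosteroid responses, and its protein is known to stabilise PIF4. Its region at 10910401 to 10911357 on chromosome 3 had folds of 3.07 and 5.84 in lists 2 and 3, with the summit 339 bp outside the gene, and another inside the gene had 2.27 and 3.51. MYB94 and MYB96, activators of cuticular wax synthesis, followed: MYB94 reached 2.88 in list 2 and 4.72 in list 3, and MYB96 reached 2.28 and 3.79. The authors' false discovery rates in lists 2 and 3 were 86.9% and 99.86% for these MYB94 peaks. For the MYB96 peaks they were lower, at 33.73% and 56.15%. MYB94 also had a region inside the gene, with folds of 1.81 and 2.92. None of these 5 regions had an overlapping peak of list 1. The same held for 20 of the 29 MYB regions in lists 2 and 3. Over all genes it held for 1473 of 2212 such regions. MYB60, a guard cell gene that affects stomatal opening, had only a list 1 peak of 1.02, and MYB31 a list 2 peak of 2.12.

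Of the 6 glucosinolate activators of subgroup S12, 2 had a shared region, against 19.8% of MYB genes and 15.1% of all genes. They were the indolic regulators MYB51 and MYB122. MYB51 had folds of 1.05, 4.11 and 5.95 in lists 1, 2 and 3 at 6393035 to 6393594 on chromosome 1. Its summit, 1995 bp from the gene, was just within the limit. So was that of MYB122 at 1987 bp, with folds of 2.20 and 4.04 in lists 2 and 3, where AT1G74088 was nearer at 1531 bp. A second MYB51 region at the gene had folds of 0.78, 2.61 and 3.91 in lists 1, 2 and 3. These were not 1 site: a list 2 peak 2580 bp wide joined them, and their summits were at 6390014, 6391067 and 6389372. Near the list 2 summit, list 3 had another peak of 3.86, with its summit at 6391047. MYB34, the third indolic regulator, had no assigned peak, but peaks with folds of 4.70 and 7.21 in lists 2 and 3 lay 2575 bp away, nearer to BASL. The aliphatic regulators MYB28, MYB29 and MYB76 had peaks in list 1 alone, as had 39.0% of all genes. MYB28 had 1.35, and a single peak of 0.99 was assigned to both MYB29 and MYB76.

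Developmental regulators gave scattered regions. MYB124 (FLP), which limits stomatal lineage divisions, had folds of 2.97 and 4.91 in lists 2 and 3, with the summit 546 bp outside it and inside the neighbouring UTR3. MYB105 (LOF2), an organ boundary gene, had 2.94 and 5.35 at 512 bp. MYB91 (AS1), which keeps KNOX genes off in leaves, had 1.92 and 4.06 at 923 bp. MYB66 (WEREWOLF), which sets hairless root epidermis, had 1.41, 2.50 and 3.22 in lists 1, 2 and 3, but the summit was nearer to CA2, at 87 bp. MYB17 (LMI2), a meristem identity gene, had 1.93 and 3.31 in lists 2 and 3. MYB101, a pollen tube factor, had 1.98 and 3.23. Each of these last 2 had another gene nearer to the summit.

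Of 13 secondary wall genes, 1 had a shared region, against 19.8% of MYB genes and 15.1% of all genes. That gene was MYB85, an activator of lignin synthesis, with folds of 3.09 and 4.01 in lists 2 and 3 at 11924900 to 11925647 on chromosome 4 and 1.85 and 3.44 inside the gene. MYB61, which acts in xylem, stomata and seed mucilage, had 1.90 and 3.48 with its summit 1830 bp away. Among the 13 wall genes, 8 had no peak in any list (39.5% of all genes and 38.8% of MYB genes had none), including the switch gene MYB46 and the lignin regulators MYB58 and MYB63. MYB43, also a wall gene, had a list 3 peak of 6.08 at 1589 bp, with a false discovery rate of 75.4%. Beyond the limit, peaks of 2.76 in list 2 and 4.97 in list 3 lay 2230 and 2204 bp from MYB43, nearer to AT5G16590. The remaining members with a shared region were MYB47, MYB67, MYB27 and MYB6. MYB47 had folds of 1.01, 1.91 and 3.06 in lists 1, 2 and 3 with the summit in the gene. MYB67 had 2.86 and 4.57, MYB27 had 2.02 and 4.02, and MYB6 had 1.52 and 3.48 in lists 2 and 3. Other genes were nearer to the highest summits at MYB67 (AT3G12710, at 65 bp) and MYB27 (UMAMIT6, at 37 bp). The MYB6 peaks overlapped, but their summits were apart, at 5993925 in list 2 and 5994677 in list 3.

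Several groups had no shared region at any member. These were subgroup S22 (MYB44, MYB70, MYB73 and MYB77), which acts in stress and auxin responses, the RAX-type genes of subgroup S14 with 6 members, and the suberin regulators with 7. Subgroup S2 with 3 members, subgroup S23 with 3, the stamen genes MYB21, MYB24 and MYB57, the female gametophyte and embryo group with 5 and the tapetum group with 2 also had 0. All groups are small, and 15.1% of all genes held a shared region. Neither a count of 0 nor the higher counts of the groups above are thus results about a group. MYB44 of subgroup S22 had 3 list 1 peaks, with folds between 0.65 and 0.84. MYB18 (LAF1), a factor of phytochrome A signalling, had a list 1 peak of 0.63 inside the gene and none in list 2 or 3. A list of 12 members with a role in light or dark growth or near it was made with earlier results of these data known. Of these, 5 had a region in lists 2 and 3: MYB30, MYB75, MYB96, MYB4 and MYB112. The share was 19.0% over MYB genes and 11.6% over all genes. As the list is small and was not drawn blind, its count is not a result about light or dark growth.

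**Figure D3:**
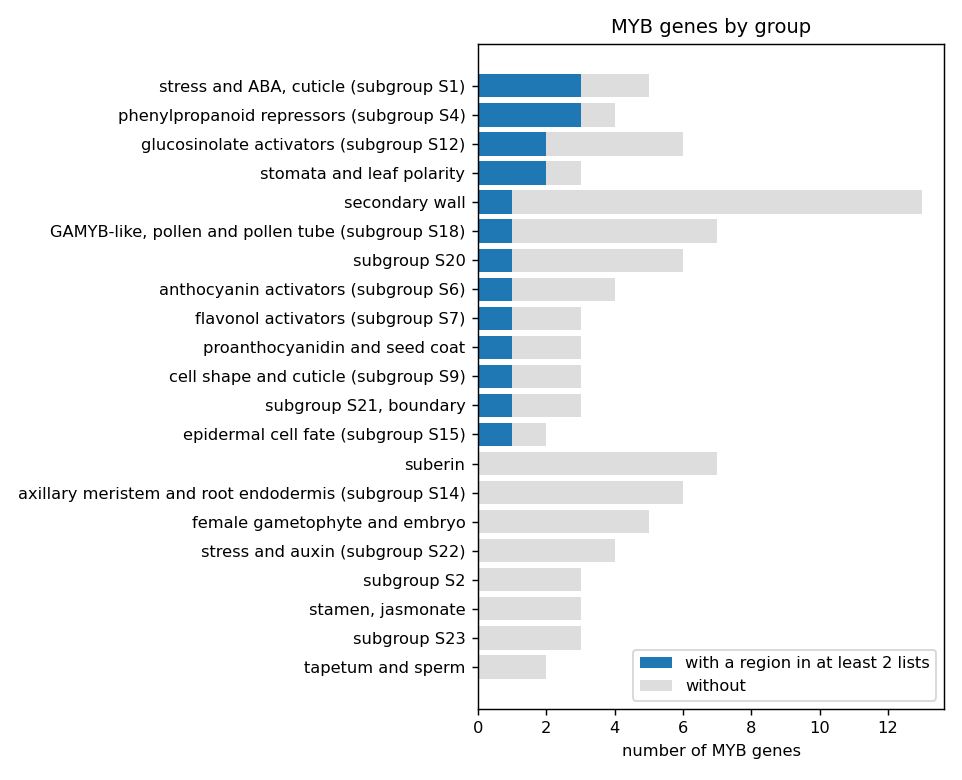
Number of MYB genes in each of 21 functional groups or subgroups, with the blue part giving those with a shared region in at least 2 lists; MYB61 is counted under seed coat. Subgroups S1 and S4 each held 3 such genes, of 5 and of 4, and secondary wall genes 1 of 13. The share was 19.8% over all MYB genes and 15.1% over all protein-coding genes.

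Among genes with peaks in list 1 alone, those ranked best by p-value were MYB37 (RAX1), MYB79 and MYB20. Their folds were 2.33, 1.82 and 2.21, and they ranked 411, 505 and 571 of 12177 peaks. MYB118 and MYB114 held the MYB peaks at a false discovery rate of 1% or less, both in list 1, with folds of 2.62 and 3.21. Neither overlapped a peak of another list. Of the 74 list 1 peaks at MYB genes, 38 had a fold below 1, against 51.2% of all list 1 peaks.

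Most MYB regions lay between genes. Of 31 regions, 24 had their highest summit outside every protein-coding gene (77.4%, interval 58.9 to 90.4), against 59.7% of all shared regions near genes. Gaps around MYB genes were also wider, as given above, and their part in this share was not tested. Measured from the MYB gene, 6 summits lay inside it, 5 within 500 bp, 10 between 500 and 1000 bp, 7 between 1000 and 1500 bp and 3 beyond that. For summits outside the gene the median distance was 869 bp at MYB genes and 806 bp over all genes. Another gene was nearer to the summit in 10 of the 31 regions, and with the nearest gene alone 15 MYB genes had a shared region (12.4%), against 9.09% of all genes.

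The highest list 2 and list 3 folds in the neighbourhood of MYB genes fell beyond the limit of 2 kb. Near MYB87, peaks at 17754647 to 17755490 in list 2 and 17754511 to 17755475 in list 3 on chromosome 4 had folds of 7.25 and 12.99 and ranked 13 by p-value in both lists. Their summit was 2999 bp from MYB87 and 1076 bp from ACS8, an ethylene synthesis gene. At MYB117 (LOF1), the relative of MYB105, peaks of 3.24 and 5.03 in lists 2 and 3 lay 2668 bp away and 188 bp from AT1G26790. With a window of 3 kb, tried after the data had been seen, 30 MYB genes had a shared region (24.8%), against 19.3% of all genes.

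**Figure D4:**
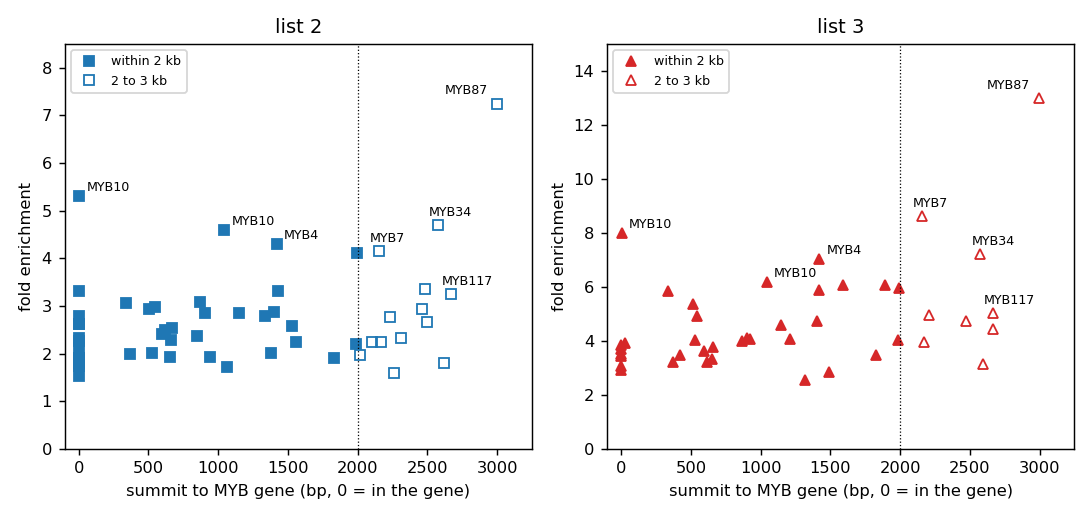
Fold enrichment of single list 2 (left) and list 3 (right) peaks against the distance of their summit from the MYB gene in bp, with filled symbols for assigned peaks, open symbols for peaks between 2 and 3 kb and a dotted line at 2 kb. The MYB87 peaks at 2999 bp, with folds of 7.25 and 12.99, lay above every assigned peak of their list, of which the highest were 5.30 and 7.99 at MYB10.

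By chromosome, shared regions lay at 9 of 28 MYB genes on chromosome 1, 2 of 13 on chromosome 2, 7 of 27 on chromosome 3, 4 of 16 on chromosome 4 and 2 of 37 on chromosome 5. Over all genes the share was between 14.9% and 15.6% on every chromosome. The chromosome 5 genes were MYB66 and MYB96.

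Genes that work with MYB factors were looked up as a list of 26, and their counts stand beside 15.1% of all genes with a shared region and 11.6% with one in lists 2 and 3. The bHLH and WD40 partners of MYB complexes, TT8, GL3, EGL3, MYC1 and TTG1, had 0 shared regions of 5, with list 1 peaks at 3. Flavonoid enzyme genes had a region in lists 2 and 3 at 2 of 9. These were F3H, with folds of 2.95 and 4.58, and DFR, with 0.94, 2.48 and 3.64 in lists 1, 2 and 3. CHS, the first enzyme of the pathway, had only a list 1 peak of 0.75. Small R3 MYB repressors, which compete with R2R3 factors for bHLH partners, had a shared region at 2 of 7. ETC1 had folds of 0.72, 4.29 and 5.52 in lists 1, 2 and 3, and CPC had 1.14 and 2.40 in lists 1 and 2. Of 5 genes for MYB factors with 3 repeats, which act in the cell cycle, MYB3R4 had a region, with folds of 1.57 and 3.04 in lists 1 and 3.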

How the data were processed

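Peaks were called by the authors on each PIF4-Myc library with a WT ChIP as control, per the file headers, using MACS 1.4.0rc2 (lists 1 and 3) or 1.4.1 (list 2) with a p-value cutoff of 1e-05. The submitters' processing notes also name CASAVA 1.8.0, Bowtie 0.12.7 and TAIR10. The authors deposited tags per peak as read counts, which were taken as a score in list 1, where all are multiples of 5. Their peak score, also deposited, is log10 of the p-value multiplied by -10. Fold enrichment is a ratio and the false discovery rate a percent, both as deposited. Treatment tags per list are given above, the total of the list 1 control is unreadable, and no depth per position was available, so folds carry no interval.

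Genes came from RefSeq TAIR10.1, whose nuclear chromosomes were taken to match TAIR10, and none of its coordinates are printed. The annotation's synonyms served as descriptions. Assignment and sharing were computed in Python 3.11.15 with pandas 2.3.3 and tested on simulated data, where 200 of 200 planted regions were found. MYB genes, groups and partner genes were chosen with earlier results of these data known. Named are members with a region in lists 2 and 3 and 12 members tied to light or dark growth. Also named are up to 4 members with the highest list 3 folds between 2 and 3 kb. The 3 best-ranked genes of list 1 alone and partners with a region in lists 2 and 3 are named too. Other names, such as MYB3, MYB43, MYB114, MYB118, CPC and MYB3R4, were chosen after their values were seen. Peak lists with shared controls and edges allow no test over libraries, so none was made.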

Additional observations from a re-analysis of the deposited data

How the results depend on the processing

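Of 70 recomputed values, 42 stayed within 1.5 times the reported count, or within the exact interval of the reported share or median, and 28 did not. Below, counts of MYB genes are given for list 1, list 2, list 3, shared regions, regions in lists 2 and 3, and regions in all 3 lists. With the better-ranked 50% of each list these were 33, 19, 13, 14, 11 and 2 (27.3%, 15.7%, 10.7%, 11.6%, 9.09% and 1.65%, against 29.7%, 9.79%, 7.17%, 7.33%, 6.10% and 1.29% of all genes). Keeping peaks with a false discovery rate of at most 1% they were 2, 0, 0, 0, 0 and 0, and in list 1 1.65% of MYB genes against 0.572% of all genes, with shared regions at 0.0510% of all genes. A window of 5 kb gave 91 genes in list 1, 53 in list 2, 39 shared and 36 in lists 2 and 3 (75.2%, 43.8%, 32.2% and 29.8%, against 75.2%, 33.0%, 26.9% and 21.3% of all genes). Regions in all 3 lists were then at 7.44% of MYB genes, below the 8.19% of all genes. With the nearest gene alone there were 16 genes in list 3, 15 shared, 15 in lists 2 and 3 and 4 in all 3 lists (13.2%, 12.4%, 12.4% and 3.31%, against 8.69%, 9.09%, 7.05% and 2.27% of all genes). Regions in all 3 lists were also at 4 genes with equal numbers of peaks, with a reciprocal overlap of 50% and with a window of 1 kb (3.31%, against 1.09%, 0.649% and 2.82% of all genes). List 1 reached 19 genes with equal numbers of peaks (15.7%, against 14.6% of all genes) and 30 with a fold of 1 or more (24.8%, against 29.3%). Leaving out 1 list in turn gave between 7 and 23 genes with a shared region (without list 3, 6.61% of MYB genes against 7.43% of all genes), and a median list 3 fold between 4.02 and 5.90. The cause of these moves was not tested, beyond there being fewer peaks or lists. No paired analysis was possible because the results come from no test and the WT libraries have no values of their own. Motif shares in promoters and protein likeness were planned but not run, since no sequences were used here. Folds come from single peaks, most with a false discovery rate over 50% in lists 2 and 3.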
